A study of Homo sapiens with 56 samples.

Results

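The comparison described here is CLF added to IBR in 3 mantle cell lymphoma lines, MINO-P, MINO-VR and Z138. Its members were taken by their labels: the 6 libraries with treatment IBR_CLF (2 per line) were set against the 8 libraries with treatment IBR (3 of MINO-P, 3 of MINO-VR and 2 of Z138), 14 of the 56 libraries of the series. The series profiled poly(A) RNA of lymphoma lines under single drugs and drug combinations, and its title names resistance to treatment and the survival proteins BIRC5 and MCL-1. Mantle cell lymphoma is a cancer of mature B cells driven by cyclin D1. MINO, Z138 and JEKO-1 are established lines of it. MINO-P and MINO-VR both carry the MINO name and are counted here as separate lines, though they may not be independent of each other. IBR is read here as ibrutinib, which blocks Bruton's tyrosine kinase in the B-cell receptor pathway. The labels do not spell out CLF, nor what P and VR stand for, and give no dose or time, so CLF is treated as a label only. All 14 libraries carry IBR, so the comparison shows what differed when CLF was present on top of it. JEKO-1, with 3 IBR and 2 IBR_CLF libraries, was left out of the main comparison and is described at the end. Where nothing says that libraries came from separate cultures, the p-values measure only the spread between these libraries, which may be technical.

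Much of the text below describes the secretory pathway, the route by which a B cell makes membrane and secreted proteins such as immunoglobulin. Most of its gene lists were added after the data were seen, so they describe the libraries and are not independent evidence. Of the 18 genes called in the main comparison, 6 belong to these lists. Proteins enter the endoplasmic reticulum (ER) through the SEC61 translocon, receive sugars from the oligosaccharyltransferase, are folded by chaperones and disulfide isomerases, and leave in vesicles with a COPII coat. KDEL receptors and COPI-coated vesicles return escaped chaperones from the Golgi. When unfolded proteins pile up, the sensors ATF6, IRE1 (which splices XBP1 mRNA) and PERK raise the genes of this machinery. BHLHA15 (MIST1) is a transcription factor downstream of XBP1 that organises secretion in plasma cells and exocrine glands.

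Promoter sequences of 5 of these genes are printed because the stress sensors' factors act through known letters there. BHLHA15 and HSPA5 are shown as the leading gene of the comparison and the best known gene of the unfolded protein response, and KDELR3, PRDX4 and HYOU1 as genes that hold a core match. The ER stress response element (ERSE), CCAAT and CCACG set 9 bases apart, is bound by NF-Y together with ATF6 or XBP1. ACGTGG, which shares CGTGG with the reverse strand of that element, and TGACGTGG, which contains ACGTGG, are core letters bound by XBP1 and ATF6. The letters were chosen after seeing the data. They were searched on both strands in the 250 bases before each start site in RefSeq (GRCh38.p14). Each sequence runs 5′ to 3′ on the gene's strand, leaves out bases in annotated GENCODE exons, and has the match in capitals. The capitals mark TGACGTGG or its reverse complement in KDELR3 and HYOU1, ACGTGG in PRDX4 and the ERSE in HSPA5. In PRDX4 the stretch CCACGTGG holds overlapping matches of ACGTGG on both strands. The BHLHA15 window held none of the 3.
BHLHA15, chr7:98211189-98211426, plus strand: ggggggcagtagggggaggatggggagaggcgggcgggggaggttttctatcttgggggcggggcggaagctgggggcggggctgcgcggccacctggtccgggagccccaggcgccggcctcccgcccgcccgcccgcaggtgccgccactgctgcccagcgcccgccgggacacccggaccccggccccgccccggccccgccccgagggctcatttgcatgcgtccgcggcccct
KDELR3, chr22:38467846-38468061, plus strand: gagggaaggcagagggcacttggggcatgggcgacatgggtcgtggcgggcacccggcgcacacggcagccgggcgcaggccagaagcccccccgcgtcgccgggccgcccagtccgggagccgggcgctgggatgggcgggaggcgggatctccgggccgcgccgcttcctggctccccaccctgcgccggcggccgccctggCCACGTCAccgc
PRDX4, chrX:23667243-23667445, plus strand: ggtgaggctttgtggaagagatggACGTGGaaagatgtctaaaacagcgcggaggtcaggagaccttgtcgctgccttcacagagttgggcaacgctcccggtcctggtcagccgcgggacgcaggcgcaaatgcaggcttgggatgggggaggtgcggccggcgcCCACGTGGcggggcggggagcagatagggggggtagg
HYOU1, chr11:119057206-119057455, minus strand: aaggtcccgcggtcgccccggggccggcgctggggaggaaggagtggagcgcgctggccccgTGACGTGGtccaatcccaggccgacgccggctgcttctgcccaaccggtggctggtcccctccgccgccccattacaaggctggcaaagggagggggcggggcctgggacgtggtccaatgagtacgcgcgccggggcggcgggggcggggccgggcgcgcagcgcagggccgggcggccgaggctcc
HSPA5, chr9:125241344-125241593, minus strand: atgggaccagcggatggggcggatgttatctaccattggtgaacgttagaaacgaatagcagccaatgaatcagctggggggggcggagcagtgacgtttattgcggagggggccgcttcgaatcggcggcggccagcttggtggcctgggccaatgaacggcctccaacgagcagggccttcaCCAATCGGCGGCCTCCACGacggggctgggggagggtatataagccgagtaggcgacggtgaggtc

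Of the 18 genes called in the main comparison below, 14 had windows in the RefSeq table (not HID1, ABCB4, SLC39A14 and SRPRA). ACGTGG stood in at least 1 window of 6 of these (DNAJC10, NUCB2, FKBP11, CYB561, KDELR3 and PRDX4), against 10.1% of all 27305 genes and 8.37% of all 35116 windows. TGACGTGG stood in the windows of DNAJC10 and KDELR3, against 0.780% of all genes. KDELR3 entered the main test only through the IBR_CLF libraries, where it is high, so its matches in these counts are given as a description. The ERSE stood in none of the 14 and in 7 of the 20 genes of the unfolded protein response list (HSPA5, HSP90B1, PDIA6, CALR, CANX, XBP1 and CRELD2), against 0.0916% of all genes. The shares of all genes cover every gene with a window, expressed here or not, and the share among tested genes was not computed. A match describes the letters of the window and no binding was measured.

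In both MINO lines the IBR and IBR_CLF libraries include pairs whose names differ only by a final letter. These 4 pairs differed by 6.499 to 8.57 in chi-square per degree of freedom of recovered reads, while the other 4 MINO pairs within a treatment differed by 141 to 172 and the Z138 pairs by 161 and 299. Sampling noise alone would give about 1. The labels do not say whether the MINO name pairs are repeats of 1 sample, so counts of called genes are given with the pairs as separate libraries and with them blocked or averaged. The Z138 libraries carry the same name suffix across treatments, and a block on it is given beside the Z138 tests. The depth recovered from the smallest value steps was 7827074 to 18814229 reads per library. B-cell and mantle cell lymphoma markers (MS4A1, CD79A, CD79B, PAX5, CCND1, SOX11, CD5) averaged at least 1 CPM (reads scaled to a common library total) for 7 of 7 over the 14 libraries. Their sum was 1664 to 5772 CPM in IBR and 1402 to 3999 CPM in IBR_CLF. By line, CD5 averaged 7.07 CPM in MINO-P, 4.60 CPM in MINO-VR and 0.069 CPM in Z138. T and NK markers summed to at most 3.89 CPM in IBR and 6.83 CPM in IBR_CLF, and myeloid markers to at most 6.45 and 2.54 CPM. Epithelial and fibroblast markers summed to 1.28 to 34.4 CPM in IBR and 7.65 to 46.9 CPM in IBR_CLF, with KRT18 at 0 in all 14 libraries, and their part in the results was not tested.

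With CLF added, 18 of 14646 genes tested rose and 0 fell at an adjusted p under 0.05 (limma, Benjamini-Hochberg over all genes tested), which is 0.123% of the genes. At an unadjusted p under 0.05, 1174 genes were higher (8.02%) and 249 were lower (1.7%). With chromosome M left out, as described below, that split was 864 higher and 465 lower. In 146 genes (0.997%) every IBR_CLF library exceeded every IBR library of its line in all 3 lines, and in 21 genes (0.143%) every one lay below. In bulk RNA, fewer cells of a type and less RNA per cell cannot be told apart. Of the 18 called genes, all but CYB561 and SRPRA were among the 146. The 6 functional lists of ER and Golgi genes hold 107 tested genes, of which 6 were called higher, 76 were higher and 1 lower at an unadjusted p under 0.05, and 102 had a positive difference. Their median log2 difference was 0.51, against 0.07 over all genes, of which 60.1% were positive. Of these lists 5 were added after the data were seen, so their counts describe the libraries and are not independent evidence of a direction.

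The 18 calls depend on how libraries are counted. With the MINO name pairs averaged, limma called 0 genes, with 398 at an unadjusted p under 0.05. With the pairs as a random block (correlation 0.81) it called 1, BHLHA15, with 466 unadjusted. Leaving out single libraries gave 0 to 120 calls, and each library except the third MINO-P IBR library moved the count by over 1.5 times. Without 1 of the MINO-VR IBR_CLF libraries or without the second MINO-P IBR_CLF library 0 remained called, while without the second Z138 IBR library there were 120.

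**Figure D1:**
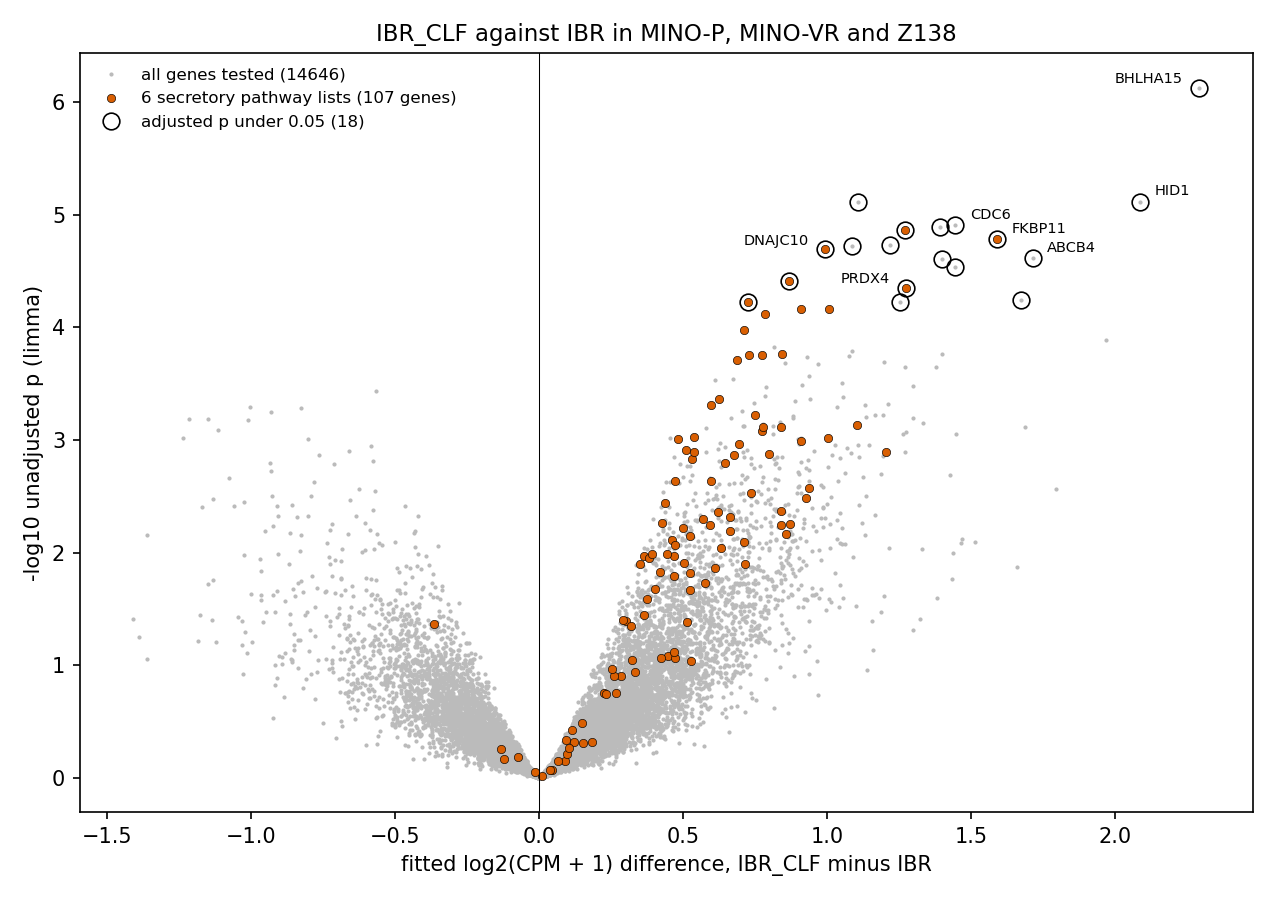
Fitted log2(CPM + 1) difference (IBR_CLF minus IBR, horizontal axis) against -log10 of the unadjusted p (vertical axis) for 14646 genes in MINO-P, MINO-VR and Z138. Orange points are the 107 genes of the 6 secretory pathway lists, of which 102 lie to the right of 0, and the 18 ringed genes, all to the right, passed the adjusted threshold.

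BHLHA15 (ENSG00000180535, chromosome 7, 98211439 to 98215458, hg38) had the smallest p of all genes. In MINO-P it stood at 28.0, 29.03 and 18.1 CPM in the IBR libraries and at 93.6 and 107 CPM in the IBR_CLF libraries. In MINO-VR the values were 27.0, 29.4 and 11.8 CPM against 182 and 190.2 CPM. In Z138 they were 13.6 and 40.98 CPM against 93.5 and 68.9 CPM. Every IBR_CLF library lay above every IBR library, with no overlap within or across lines. The mean was 24.7 ± 9.68 CPM (SD, n = 8) in IBR and 123 ± 50.9 CPM (SD, n = 6) in IBR_CLF. The fitted log2(CPM + 1) difference was 2.29 (SE 0.29, limma adjusted p = 0.0109), a 4.90-fold rise on that scale. It was 2.28 (SE 0.33, limma adjusted p = 0.0463) with the name pairs as a random block. With the pairs averaged it was 2.27 (SE 0.39) and did not pass (limma adjusted p = 1.00, unadjusted p = 0.000125).

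HID1, a Golgi-associated protein needed for sorting into regulated secretory granules, stood at 11.7, 14.6 and 3.29 CPM in MINO-P under IBR and at 34.9 and 38.2 CPM under IBR_CLF. MINO-VR had 7.97, 7.66 and 4.12 CPM against 58.7 and 47.6 CPM. In Z138 it stood at 7.32 and 11.2 CPM against 28.2 and 19.04 CPM. The groups did not overlap in any line, and the fitted difference was 2.09 (SE 0.32, limma adjusted p = 0.0298).

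**Figure D2:**
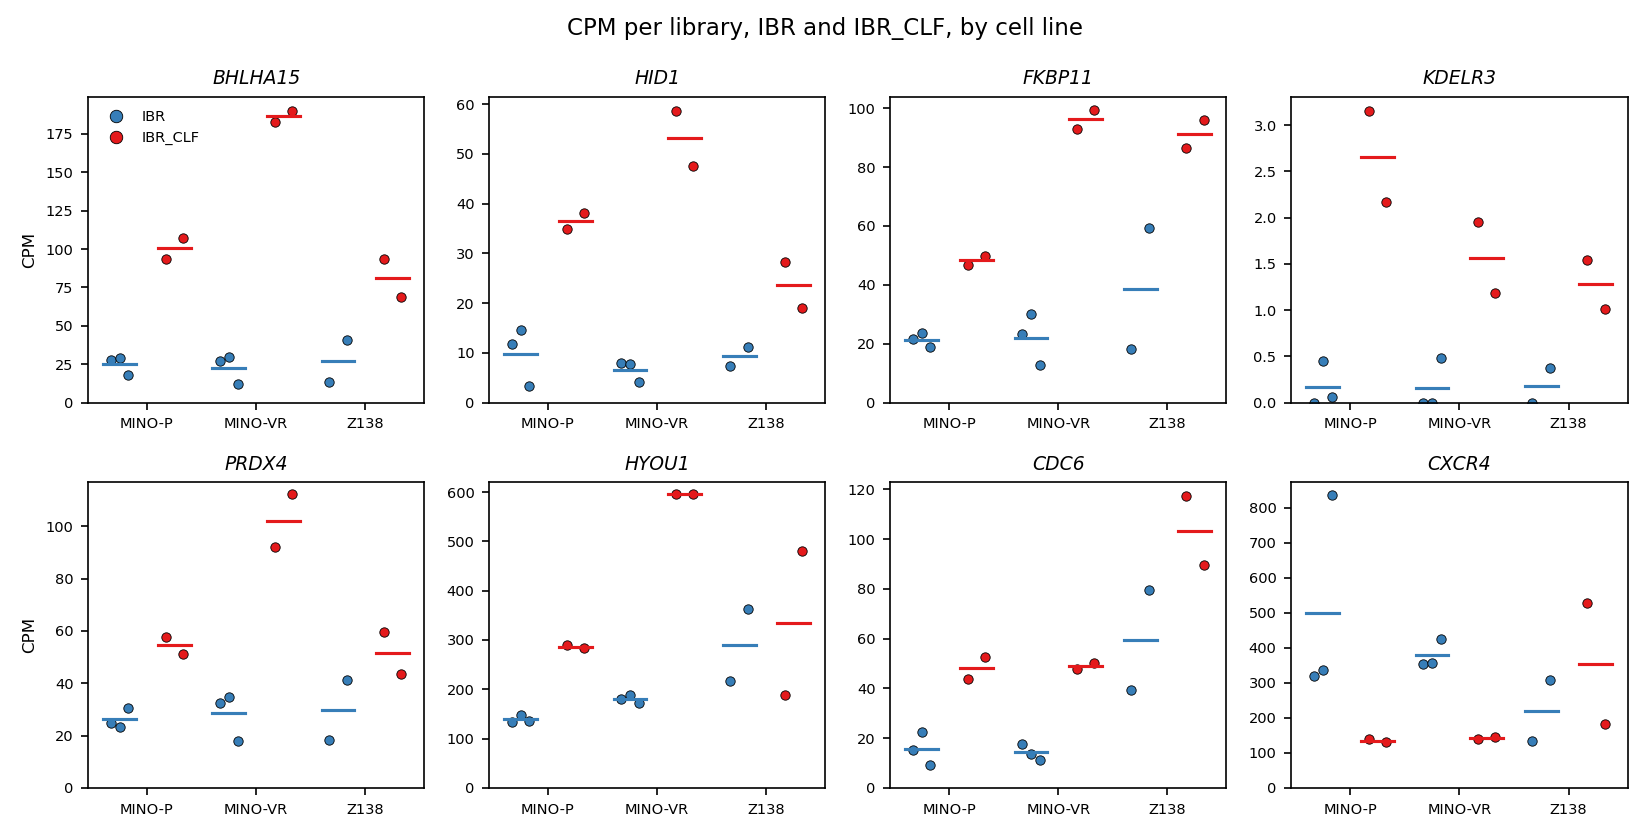
CPM (vertical axis, linear from 0) of 8 genes in each IBR (blue) and IBR_CLF (red) library of the 3 lines. Points are libraries and bars are means. BHLHA15, HID1, FKBP11, KDELR3, PRDX4 and CDC6 lie higher in every IBR_CLF library of each line, HYOU1 overlaps in Z138, and CXCR4 lies lower in the MINO lines and overlaps in Z138.

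The first step of secretion, targeting to the ER and passage into it, had 1 called gene. SRPRA, the signal recognition particle receptor subunit alpha, stood at 76.5, 69.3 and 75.8 CPM in MINO-P under IBR and 135 and 145 CPM under IBR_CLF. The MINO-VR values were 95.3, 102 and 101 against 217 and 227 CPM, and those of Z138 61.5 and 108 against 98.5 and 130.3 CPM. The SRPRA groups were apart in the MINO lines and overlapped in Z138. Its fitted difference was 0.87 (SE 0.15, limma adjusted p = 0.0404). Of the 23 genes of the signal recognition, translocon and signal peptidase list, 20 were higher and 0 lower at an unadjusted p under 0.05, with a median difference of 0.53. The translocon subunit SEC61G differed by 0.91 (SE 0.23, limma adjusted p = 0.157) and the translocon-associated SSR3 by 0.71 (SE 0.14, limma adjusted p = 0.0701), neither passing. SEC62, SRP9 and SRP14 had the smallest differences of the list, -0.07, 0.15 and 0.09.

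The oligosaccharyltransferase adds the sugar tree to asparagines of entering chains. All 11 tested members were higher at an unadjusted p under 0.05, none passed adjustment, and the median difference was 0.54. OSTC, a subunit that docks the enzyme to the translocon, stood at 79.6, 102 and 92.9 CPM in MINO-P under IBR and at 142 and 138.3 CPM under IBR_CLF. It stood at 112, 105 and 84.6 against 220.5 and 226 CPM in MINO-VR, and at 116 and 181 against 212.5 and 211 CPM in Z138. OSTC did not overlap between groups in any line, and its difference of 0.78 (SE 0.15) had a limma adjusted p of 0.0537.

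Among the secretory lists, that of folding enzymes held the most calls, 3 as deposited and 0 with chromosome M left out. That list was added after the data were seen, so its count is a description. FKBP11, an ER prolyl isomerase of secretory cells, stood at 21.4, 23.7 and 18.8 CPM in MINO-P under IBR and at 46.6 and 49.9 CPM under IBR_CLF. In MINO-VR FKBP11 stood at 23.3, 30.2 and 12.7 against 92.9 and 99.5 CPM, and in Z138 at 18.1 and 59.2 against 86.4 and 96.1 CPM. It did not overlap in any line and rose by 1.59 on the log2 scale (SE 0.26, limma adjusted p = 0.0298). PRDX4, an ER peroxiredoxin that uses peroxide to form disulfides, stood at 24.8, 23.3 and 30.5 CPM against 57.5 and 51.3 CPM in MINO-P. MINO-VR had 32.5, 34.9 and 17.9 against 92.3 and 112 CPM, and Z138 18.4 and 41.1 against 59.6 and 43.4 CPM. The PRDX4 groups did not overlap in any line, and it rose by 1.27 (SE 0.23, limma adjusted p = 0.0434). DNAJC10 (ERdj5), a reductase that opens disulfides of proteins bound for degradation, rose by 0.99 (SE 0.16, limma adjusted p = 0.0298), from 49.6 to 184 CPM in IBR (median 62.1) to 104 to 219.7 CPM in IBR_CLF (median 157). Of the 18 genes of the disulfide and proline folding list, 3 were called, 11 were higher and 0 lower at an unadjusted p under 0.05, and the median difference was 0.69. TXNDC5, a disulfide isomerase, did not overlap in any line and just missed the threshold (1.01, SE 0.19, limma adjusted p = 0.0508).

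No gene of the unfolded protein response list passed in the 3 lines together, though 20 of 20 differences were positive, 14 were higher at an unadjusted p under 0.05 and the median was 0.62. HYOU1, an ER chaperone of the HSP110 family, stood at 134, 148 and 136 CPM in MINO-P under IBR and at 289 and 283 CPM under IBR_CLF. In MINO-VR HYOU1 stood at 181, 189 and 172 against 596 and 597 CPM. In Z138 it stood at 216 and 363 against 188 and 481 CPM, so the Z138 groups overlapped. HSPA5 (BiP), the chief ER chaperone, stood at 852, 868 and 697 CPM against 1313 and 1443 CPM in MINO-P, and at 1528, 1651 and 1046 against 3699 and 3956 CPM in MINO-VR. In Z138 it stood at 1615 and 1538 CPM against 991 and 1736 CPM, with no separation. XBP1, counted without regard to splicing, differed by 0.46 in MINO-P, 0.82 in MINO-VR and -0.02 in Z138.

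In a limma fit of the MINO lines alone 316 of 13615 genes rose (2.32%) and 108 fell (0.793%), or 181 and 217 with chromosome M left out. In 2 further fits chosen after seeing the data, 45 rose (0.331%) and 13 fell (0.0955%) with the name pairs as a random block, or 16 and 9 with chromosome M left out. With the pairs averaged limma called 0, with 867 at an unadjusted p under 0.05. Of the 18 genes above, 12 were called with the random block. The unfolded protein response list then had 8 of 20 genes called higher: HSPA5, DNAJB11, SDF2L1, PDIA4, CALR, CRELD2, MANF and HYOU1. HYOU1 rose by 1.39 in this fit (SE 0.18, limma adjusted p = 0.00757) and MANF, a secreted ER stress factor, by 1.51 (SE 0.26, limma adjusted p = 0.0369). With the random block 4 of 23 translocon genes (SRPRA, SEC61G, SSR3 and SEC11C), 6 of 18 folding enzymes, 4 of 21 COPII genes, 2 of 16 KDEL receptor and COPI genes and 0 of 11 oligosaccharyltransferase genes were called higher. With chromosome M left out as well, the calls were 1 (HYOU1), 1 (SRPRA), 2, 2, 2 and 0 in the same lists.

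**Figure D3:**
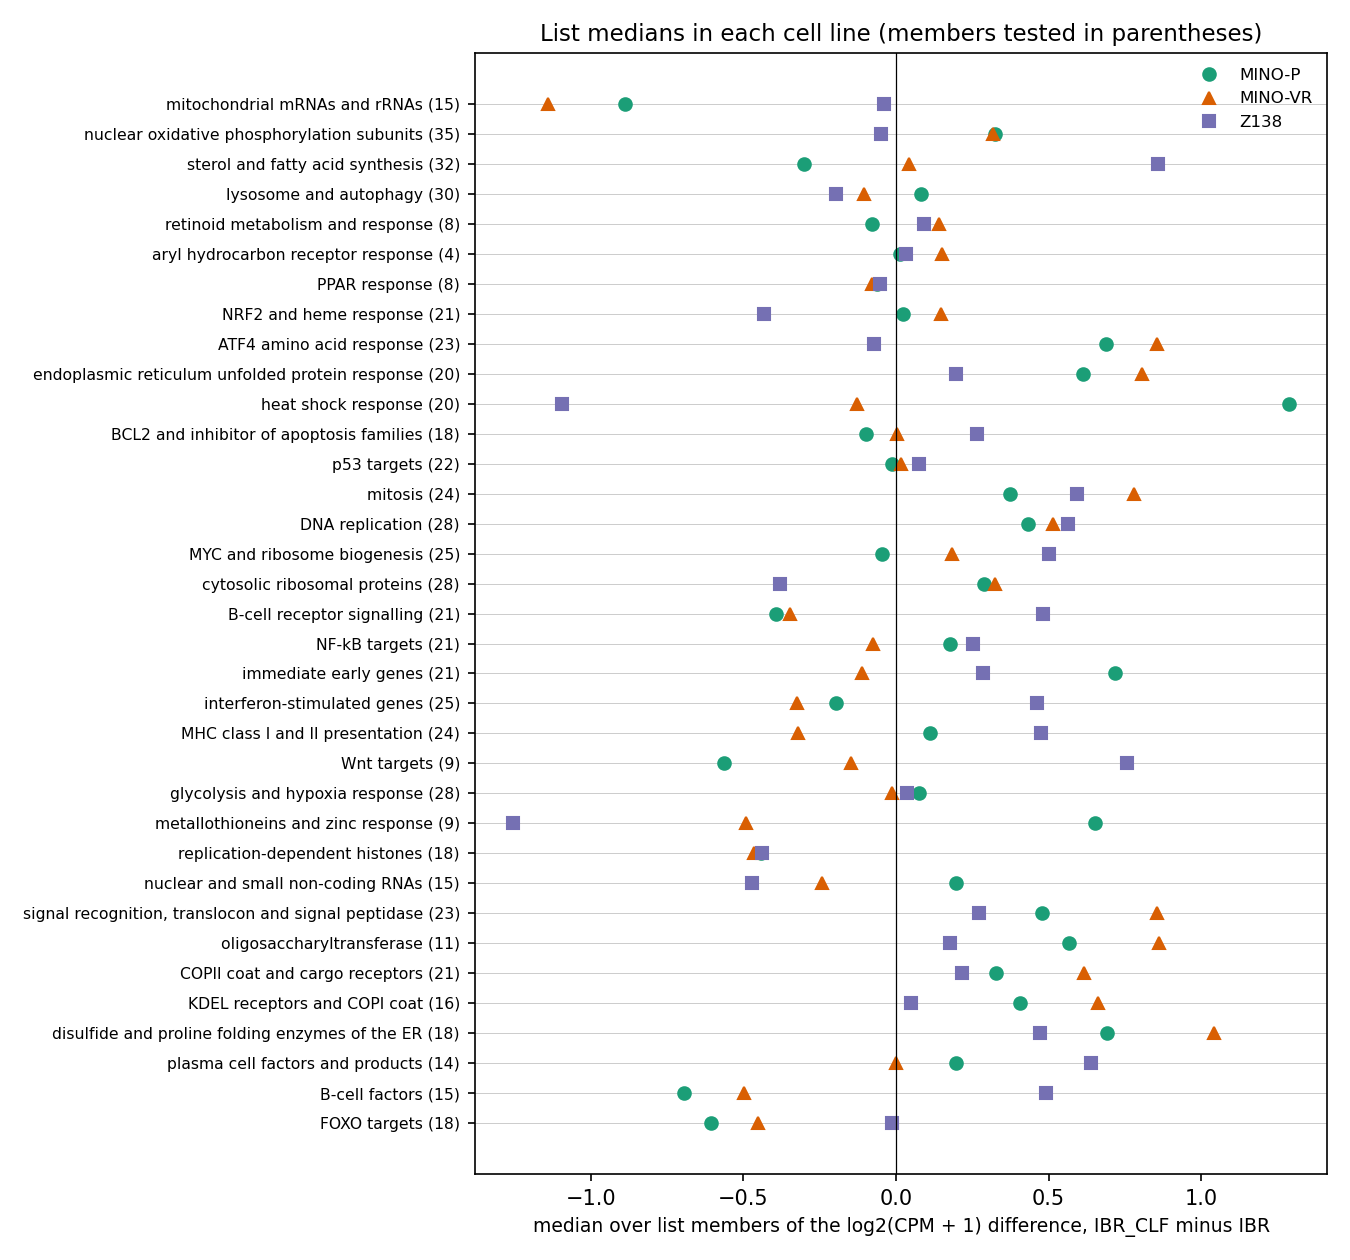
Median over each list's tested members (number in parentheses) of the log2(CPM + 1) difference, IBR_CLF minus IBR (horizontal axis), in MINO-P (circles), MINO-VR (triangles) and Z138 (squares). The ER and Golgi lists, mitosis and DNA replication lie right of 0 in all 3 lines, while heat shock, sterol synthesis and B-cell factors spread to different sides.

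Export from the ER and return to it each had 1 called gene. SEC23B, an inner subunit of the COPII coat, stood at 94.4, 96.3 and 109 CPM in MINO-P under IBR and at 161 and 165 CPM under IBR_CLF. The MINO-VR values were 145, 131 and 124 against 257 and 247 CPM, and those of Z138 117 and 193 against 216 and 216 CPM. It rose by 0.73 (SE 0.13, limma adjusted p = 0.0485), with no overlap in any line. The COPII list of 21 genes had 10 higher and 1 lower (SEC24B, -0.37) at an unadjusted p under 0.05, and a median of 0.32. SEC24D, a cargo-binding subunit, differed by 0.91 (SE 0.17, limma adjusted p = 0.0508), while its relative SEC24C differed by 0.27 and SEC23A by 0.12.

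KDELR3, a receptor that retrieves chaperones with a KDEL tail, stood under IBR at 0, 0.452 and 0.0610 CPM in MINO-P, 0, 0 and 0.482 CPM in MINO-VR, and 0 and 0.368 CPM in Z138, at most 9 reads in a library. Under IBR_CLF it stood at 3.15 and 2.16, 1.95 and 1.19, and 1.54 and 1.02 CPM, or 16 to 39 reads. The groups did not overlap in any line, and the difference was 1.27 (SE 0.20, limma adjusted p = 0.0298). KDELR3 reached 1 CPM in no IBR library and entered the test only through the IBR_CLF libraries, where it is high, so its call is given as a description. A log2(CPM + 1) difference understates the fold of a gene this low. KDELR2, the more abundant family member, stood at 143 to 209.5 CPM in IBR (median 153) and 183 to 362 CPM in IBR_CLF (median 261), overlapping in Z138 (difference 0.77, SE 0.16, limma adjusted p = 0.0872). KDELR1 differed by 0.23. Of the 16 tested genes of the KDEL receptor and COPI list, 12 were higher and 0 lower at an unadjusted p under 0.05, with a median of 0.38.

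Of 14 genes that mark plasma cells 1 was called (BHLHA15) and the median difference was 0.22. At an unadjusted p under 0.05, 4 were higher and 0 lower, and 10 differences were positive. The median was 0.20 in MINO-P, -0.00077 in MINO-VR and 0.64 in Z138. PRDM1 differed by 0.23, IRF4 by 0.00 and SDC1 (syndecan-1) by 0.21, none passing. MZB1, an ER co-chaperone for immunoglobulin, stood at 50.7, 56.7 and 102 CPM against 88.05 and 85.9 CPM in MINO-P, at 101.5, 103 and 118 against 287 and 298 CPM in MINO-VR, and at 69.7 and 202 against 229 and 221 CPM in Z138. It overlapped in MINO-P and did not pass (0.91, SE 0.24, limma adjusted p = 0.169). JCHAIN, which joins immunoglobulin polymers, ranged from 1.90 to 233 CPM in IBR (median 16.8) and from 1.82 to 1071 CPM in IBR_CLF (median 3.02), with all values above 100 CPM in Z138.

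Transcription factors of the B-cell state had different medians by line. The median difference of 15 such genes was -0.69 in MINO-P, -0.50 in MINO-VR and 0.49 in Z138. BACH2, a repressor that delays plasma cell differentiation, stood at 64.1, 65.1 and 139 CPM in MINO-P under IBR and at 29.1 and 23.8 CPM under IBR_CLF, and at 40.5, 45.9 and 67.1 against 24.1 and 20.9 CPM in MINO-VR. In Z138 it stood at 12.9 and 23.0 against 33.3 and 18.1 CPM, overlapping. BACH2 fell by 1.48 in the MINO lines with the name pairs as a random block (SE 0.30, limma adjusted p = 0.0468) and also with chromosome M left out there (-1.56, limma adjusted p = 0.0423). Over the 3 lines its difference was -0.83 (SE 0.31, limma adjusted p = 0.387). FOXP1, another B-cell factor, was lower without overlap in all 3 lines (-0.58, SE 0.15, limma adjusted p = 0.169).

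Cell cycle genes had positive medians and 1 call. CDC6, which loads the replicative helicase, stood at 15.4, 22.3 and 9.15 CPM in MINO-P under IBR and at 43.9 and 52.5 CPM under IBR_CLF. In MINO-VR CDC6 stood at 17.8, 13.8 and 11.1 against 47.8 and 50.4 CPM, and in Z138 at 39.5 and 79.4 against 118 and 89.5 CPM. There was no overlap in any line, and it rose by 1.45 (SE 0.23, limma adjusted p = 0.0298). Among 28 DNA replication genes 12 were higher and 0 lower at an unadjusted p under 0.05 (median 0.47), and 27 were positive. Among 24 mitosis genes 8 were higher and 0 lower (median 0.58), 24 were positive and none was called. CDK1, the mitotic kinase, differed by 0.87 (SE 0.29, limma adjusted p = 0.297) and E2F1, the S-phase transcription factor, by 0.78 (SE 0.24, limma adjusted p = 0.250). The CDK1 groups were apart in the MINO lines. In Z138 CDK1 stood at 36.6 and 20.5 CPM under IBR and at 96.02 and 18.4 CPM under IBR_CLF. BUB1B stood there at 22.2 and 33.4 against 87.1 and 29.6 CPM. For CDK1, BUB1B, CDC45 and E2F1 only the first Z138 IBR_CLF library exceeded the Z138 IBR libraries, unlike CDC6. Replication-dependent histones, which lack a poly(A) tail and are read unevenly by poly(A) libraries, had 4 of 18 lower and 0 higher at an unadjusted p under 0.05 and a median of -0.39.

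The other called genes do varied work. ABCB4, a phospholipid transporter, rose by 1.71 (SE 0.29, limma adjusted p = 0.0303), from 0.360 to 6.59 CPM in IBR (median 2.56) to 1.59 to 19.6 CPM in IBR_CLF (median 12.4). NUCB2, a calcium-binding protein of the Golgi and ER, rose by 1.22 (SE 0.20, limma adjusted p = 0.0298), from 30.8 to 169 CPM (median 50.2) to 97.3 to 253 CPM (median 166). SLC39A14, a zinc and manganese importer, rose by 1.11 (SE 0.17, limma adjusted p = 0.0298). Its values were 41.2, 46.1 and 48.4 against 82.1 and 87.2 CPM in MINO-P, 39.4, 47.4 and 41.8 against 109.9 and 106.5 CPM in MINO-VR, and 8.52 and 10.9 against 32.5 and 14.7 CPM in Z138. CYB561, an ascorbate-dependent cytochrome of secretory granules, rose by 1.25 (SE 0.23, limma adjusted p = 0.0485) and overlapped in Z138. NT5DC2 rose by 1.09 (SE 0.18, limma adjusted p = 0.0298).

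Some called genes rest on few reads. TANC1, a scaffold protein, rose by 1.67 (SE 0.30, limma adjusted p = 0.0485), with 0 to 3 reads per Z138 IBR library. MEI1, a meiosis gene, rose by 1.40 (SE 0.24, limma adjusted p = 0.0303), with 2 to 35 reads per IBR library and 36 to 131 per IBR_CLF library. RNASE4 rose by 1.44 (SE 0.25, limma adjusted p = 0.0327). It shares its locus with ANG, and how the counting split those reads is not given in the sources used here. FLRT1, a cell adhesion protein, had 0 reads in each MINO-P IBR library and stood at 1.29 and 1.56 CPM in the MINO-P IBR_CLF libraries. Against a floor of 3 reads per library it was at least 4.96-fold higher there, and over the 3 lines it rose by 1.39 (SE 0.22, limma adjusted p = 0.0298).

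No gene was called lower in the 3 lines together, as deposited or with chromosome M left out. The 6 genes of smallest p among those lower on average in each line were ASAH1, MXD4, SLC12A7, QPRT, SESN3 and KIF26B, with limma adjusted p-values of 0.119 to 0.140. ASAH1, lysosomal acid ceramidase, stood at 373, 375 and 348 against 243 and 265 CPM in MINO-P, at 634, 659 and 621 against 347 and 378.5 CPM in MINO-VR, and at 89.4 and 84.1 against 59.1 and 80.8 CPM in Z138. The groups did not overlap, and the difference was -0.57 (SE 0.12, limma adjusted p = 0.119). MXD4, a MYC antagonist, differed by -0.83 (SE 0.19, limma adjusted p = 0.133), also without overlap.

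SESN3 and CXCR4 are targets of FOXO factors, which act when growth factor signalling is low. Of 18 FOXO targets 7 were lower and 0 higher at an unadjusted p under 0.05, with a median of -0.36 (-0.61 in MINO-P, -0.45 in MINO-VR and -0.01 in Z138). CXCR4, a chemokine receptor, stood at 320, 337 and 837 CPM in MINO-P under IBR and at 139 and 131 CPM under IBR_CLF. In MINO-VR CXCR4 stood at 354, 357 and 426 against 139.5 and 144 CPM. In Z138 it stood at 133 and 307 against 528 and 182 CPM, overlapping. It fell by 1.67 in the MINO lines with the name pairs as a random block (SE 0.27, limma adjusted p = 0.0368; -1.74 with chromosome M left out), and over the 3 lines its difference was -0.93 (SE 0.37, limma adjusted p = 0.409).

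The genes of the proteins named in the series' title did not pass. BIRC5 (survivin) differed by 0.67 (SE 0.26, limma adjusted p = 0.401) and MCL1 by -0.19 (SE 0.19, limma adjusted p = 0.817). BCL2 stood at 475, 502 and 618 against 263 and 272 CPM in MINO-P, at 533, 508 and 1063 against 461 and 443.5 CPM in MINO-VR, and at 72.6 and 242 against 242 and 199.9 CPM in Z138. The BCL2 groups were apart in the MINO lines and overlapped in Z138, and the difference was -0.33 (SE 0.30, limma adjusted p = 0.802). Of 18 tested genes of these families none was called, 2 were higher and 0 lower at an unadjusted p under 0.05, and the median was 0.08.

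Chromosome M transcripts differed in their share of the CPM. In MINO-P they took 17.5%, 15.6% and 8.51% of the IBR libraries and 10.3% and 8.96% of the IBR_CLF libraries. In MINO-VR they took 16.1%, 14.2% and 7.92% against 6.58% and 5.96%, and in Z138 8.62% and 5.58% against 6.15% and 5.94%. The mean was 13.9% ± 4.73 (SD, n = 3) against 9.61% ± 0.93 (SD, n = 2) in MINO-P, 12.8% ± 4.30 against 6.27% ± 0.44 in MINO-VR, and 7.10% ± 2.14 against 6.05% ± 0.14 in Z138. The difference of the log2 share was -0.54 (exact permutation of libraries within lines, two-sided p = 0.0433 over 600 permutations, of which the smallest possible p is 0.00167). That test takes the name pairs as separate libraries. With the MINO pairs averaged the difference was -0.437 and did not pass (exact permutation p = 0.222 over 54 permutations). The third IBR library of MINO-P, which has no name partner, lay below both IBR_CLF libraries of its line, and that of MINO-VR lay above them by less than the other IBR libraries. Without single libraries the difference was -0.438 to -0.649. It stayed under 0.05 without the third IBR library of MINO-P (p = 0.0167) or MINO-VR (p = 0.0361) or the second Z138 IBR library (p = 0.020), and gave exact p-values of 0.0542 to 0.090 without any other. In the MINO lines alone it was -0.71 (exact permutation p = 0.060) and in Z138 alone -0.20, where no p under 0.167 is possible. Of 15 chromosome M genes 9 were lower and 0 higher at an unadjusted p under 0.05, with a median of -0.74.

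**Figure D4:**
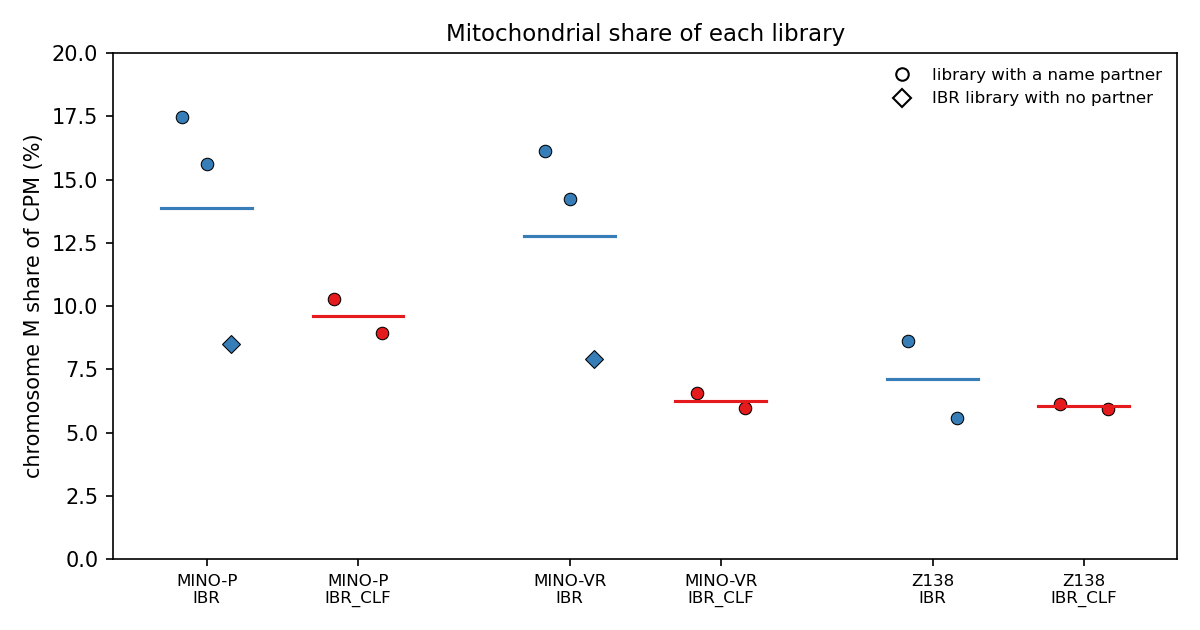
Share of CPM from chromosome M (vertical axis, %) in each IBR (blue) and IBR_CLF (red) library. Diamonds are the IBR libraries with no name partner, at 8.51% and 7.92%, and bars are group means.

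With chromosome M left out and each library rescaled to the same total, limma called 5 of 14816 genes higher (0.0337%) and 0 lower, and 1329 had an unadjusted p under 0.05. The 5 genes were BHLHA15 (2.23, limma adjusted p = 0.0193), HID1 (2.04, limma adjusted p = 0.0467), SLC39A14 (1.04), KDELR3 (1.32) and FLRT1 (1.43). All 5 were among the 18, and KDELR3 again entered only through the IBR_CLF libraries, which leaves 4 of 5 here and 17 of 18 as deposited. FKBP11 (1.53) and CDC6 (1.39) then had a limma adjusted p of 0.0505 each. The median difference over all genes moved from 0.07 to 0.02. The 6 secretory lists had medians of 0.55 for the unfolded protein response, 0.62 for folding enzymes, 0.46 for the translocon, 0.47 for the oligosaccharyltransferase, 0.25 for COPII (16 of 21 positive) and 0.32 for KDEL receptors and COPI. KDELR3 was the only gene of these 6 lists called with chromosome M left out.

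An F-test of whether the response differed between the 3 lines called 0 of 14646 genes (limma, 491 at an unadjusted p under 0.05). List medians differed by line without a test of that difference. Heat shock genes had medians of 1.29 in MINO-P, -0.13 in MINO-VR and -1.09 in Z138. Sterol and fatty acid synthesis genes had -0.30, 0.04 and 0.86, and genes of the ATF4 amino acid response 0.69, 0.85 and -0.07. Single Z138 libraries lay far from the rest. The heat shock gene HSPD1 stood at 3784 and 1124 CPM in Z138 under IBR and at 815 and 1136 CPM under IBR_CLF. SERPINH1 stood at 327 and 75.2 against 54.4 and 96.2 CPM. FADS1, of the sterol and fatty acid list, stood at 18.4 and 37.4 against 147 and 40.5 CPM. Of 23 ATF4 genes 8 were higher and 0 lower at an unadjusted p under 0.05 over the 3 lines and none was called, and with chromosome M left out 3 were higher and 0 lower.

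Z138 has all 4 treatments with 2 libraries each, so the values can be set beside untreated cells. BHLHA15 stood at 168 and 83.6 CPM untreated (CON), at 124 and 122 CPM with CLF, at 13.6 and 40.98 CPM with IBR and at 93.5 and 68.9 CPM with IBR_CLF. The IBR libraries were the low group, and 1 IBR_CLF library lay in the untreated range and 1 below it. FKBP11 stood at 89.6 and 93.3 CPM untreated, 120.5 and 130.2 with CLF, 18.1 and 59.2 with IBR and 86.4 and 96.1 with IBR_CLF. PRDX4 stood at 69.9 and 77.5, 78.5 and 69.0, 18.4 and 41.1, and 59.6 and 43.4 CPM in the same order. CLF without IBR differed from untreated by 0.05 (SE 0.53) for BHLHA15, 0.45 (SE 0.49) for FKBP11 and -0.00042 (SE 0.41) for PRDX4. In limma 0 of 13581 genes passed for that difference, with 72 at an unadjusted p under 0.05, or 0 and 185 with the name suffix as a block. Chromosome M took 3.67% ± 0.34 (SD, n = 2) of the untreated and 3.65% ± 0.25 of the CLF libraries of Z138, less than under IBR, and its part in these values was not tested. The test of whether the CLF difference depends on IBR called 0 of 13581 genes (limma, 93 at an unadjusted p under 0.05), and 0 with the name suffix as a block (246 unadjusted). For BHLHA15 that difference of differences was 1.66 (limma adjusted p = 1.00).

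In MINO-P and MINO-VR the untreated and CLF states have 1 library each, from another naming series, and no replicate check. BHLHA15 stood at 16.7 CPM untreated and 68.9 CPM with CLF in MINO-P, and at 87.0 and 113 CPM in MINO-VR. HYOU1 stood at 167 and 237 CPM in MINO-P and 314 and 378 CPM in MINO-VR. In MINO-P the untreated BHLHA15 value lay below the IBR libraries, and in MINO-VR it lay above them.

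**Figure D5:**
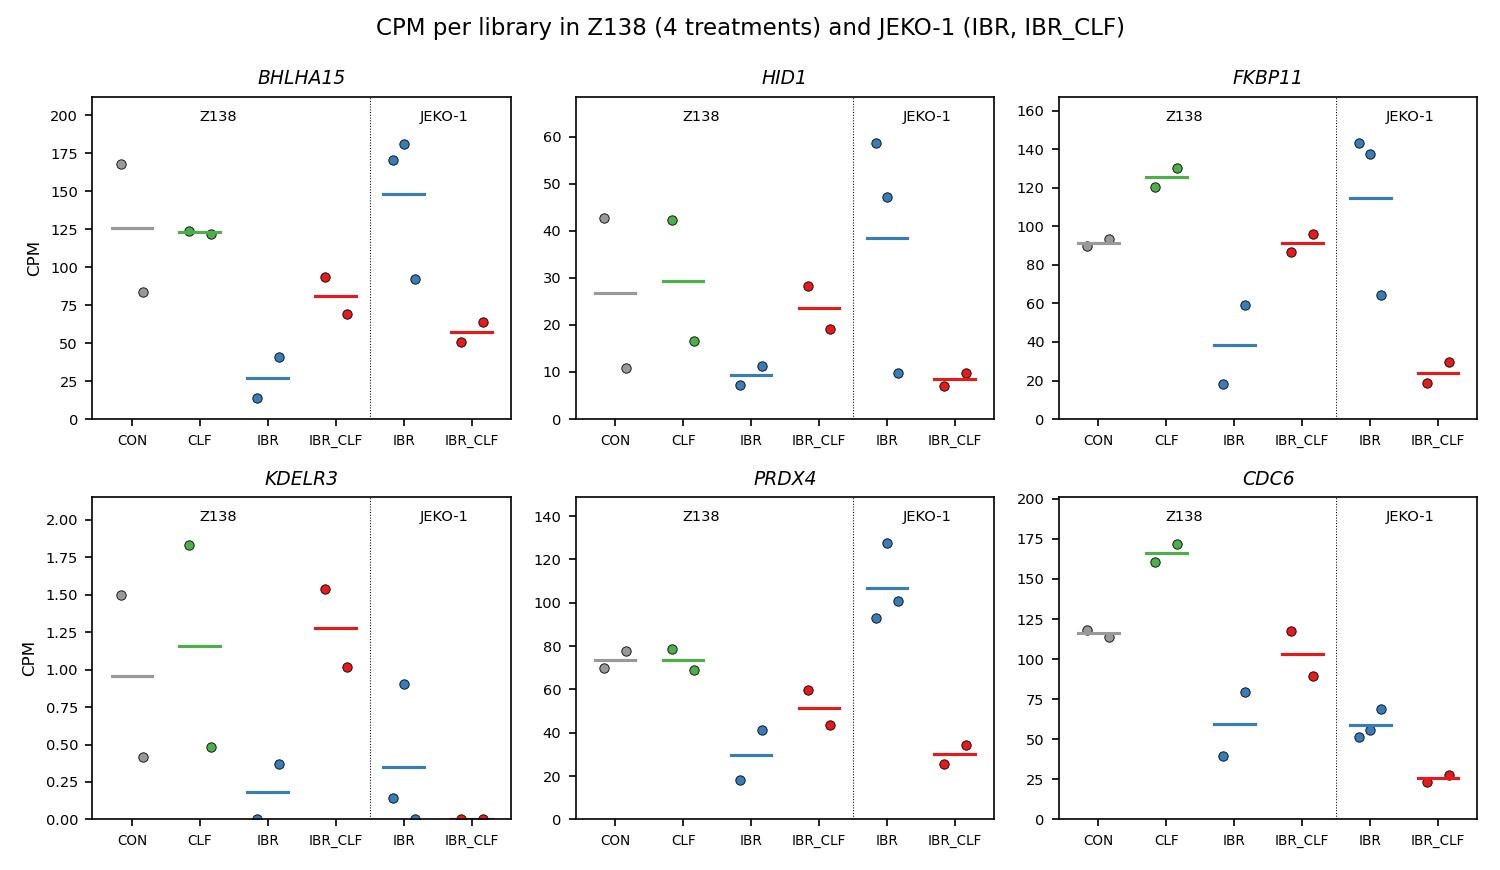
CPM (vertical axis, linear from 0) of 6 genes in Z138 under CON (grey), CLF (green), IBR (blue) and IBR_CLF (red), and in JEKO-1 under IBR and IBR_CLF. Points are libraries and bars are means. In Z138 BHLHA15 is lowest under IBR (13.6 and 40.98 CPM), and in JEKO-1 it is lower under IBR_CLF than under IBR.

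As deposited, the order in JEKO-1 was the opposite. BHLHA15 stood at 170.4, 181 and 92.4 CPM in its IBR libraries and at 50.5 and 63.7 CPM with IBR_CLF, and FKBP11 at 143, 137 and 64.2 against 18.8 and 29.4 CPM. The JEKO-1 groups did not overlap as deposited. With chromosome M left out BHLHA15 stood at 215, 226 and 107 against 128 and 156 CPM, which overlap, and FKBP11 at 181, 172 and 74.2 against 47.8 and 71.9 CPM, which do not. As deposited, BHLHA15 stood at 8.57 CPM in the 1 untreated JEKO-1 library and at 11.9 and 68.0 CPM with CLF alone. FKBP11 stood at 57.9 CPM untreated and at 58.2 and 95.6 CPM with CLF alone. For both genes the untreated value lay below the JEKO-1 IBR libraries, unlike in Z138. The 2 JEKO-1 IBR_CLF libraries, and 2 of the IBR libraries, have names that differ only by a final letter. Chromosome M took 18.1% ± 4.02 (SD, n = 3) of JEKO-1 IBR and 59.9% ± 1.09 (SD, n = 2) of JEKO-1 IBR_CLF, which lowers all other CPM. A test of the JEKO-1 difference minus the mean of the 3 lines called 6699 of 15294 genes (43.8%) as deposited and 1346 of 15752 (8.54%) with chromosome M left out (limma), counting the name pairs as separate libraries. With chromosome M left out it called 66 with the pairs as a random block and 42 with the pairs averaged, both chosen after seeing the data. For BHLHA15 the difference from the 3 lines was -2.49 (SE 0.52, limma adjusted p = 0.0073), with a JEKO-1 difference of -0.29. That call was lost with the pairs as a random block (limma adjusted p = 0.114) or averaged (0.447), as was that of FKBP11 (-2.68, limma adjusted p = 0.00466, then 0.128 and 0.3999). For SRPRA the difference was 0.05 (limma adjusted p = 0.959), against -1.04 as deposited (limma adjusted p = 0.0150).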

How the data were processed

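Libraries were made from poly(A) RNA of lymphoma cell lines, per the labels' protocols. The submitters' processing notes name Partek and the build hg38; the aligner and counter are not given in the sources used here. The deposited values are log2(CPM + 1) for 21596 rows and 56 libraries, since the back-transformed columns sum to between 999998 and 1000002. 1 unnamed row, at most 0.000604% of a library, was left out. The depth recovered from value steps was 7827074 to 18814229 reads, so 3 reads were worth 0.159 to 0.383 CPM. Between 77.6% and 89.6% of low values were whole reads (within 0.05 reads), so no count test was run. Gene coordinates are the deposited table's.

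IBR_CLF was compared with IBR using limma 3.58.1 (R 4.3.3) with an intensity trend and cell line as a term, on genes that reached 1 CPM in at least 2 of the 14 libraries, with Benjamini-Hochberg adjustment and a threshold of 0.05. A second scaling left out the 15 chromosome M rows. Alternatives covered filters, pseudocounts of 0.1 and 5, size factors, array weights, library pairs (for JEKO-1, the Z138 suffix block and the chromosome M share chosen after seeing the data), lines and single libraries. Named genes were up to 12 called genes per direction by size, filled to 6 by unadjusted p, then up to 4 called or 2 uncalled genes per list; genes outside it were chosen after their values were seen. Of the gene lists, 27 were written first and 8 added after the data were seen. The members and lists were chosen with earlier results of these data known. On simulated data for the main comparison (14646 genes), 49 of 50 falls and 47 of 50 rises of 2 log2 units were called, 25 and 21 of 50 of 1 unit, and 11 of 14446 unchanged genes. The simulation drew all libraries independently, while the MINO name pairs correlated at 0.81. These counts therefore do not describe recovery or false calls in libraries paired like these. 1 cell type marker is not reported here.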

Additional observations from a re-analysis of the deposited data

Results flagged for a closer look

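With name pairs counted as separate libraries, the CLF difference in JEKO-1 was apart from the mean of the 3 lines for 10 of the 18 genes with the strongest rises or falls (limma adjusted p under 0.05 for the difference itself, in both scalings), beside 8.54% of all genes with chromosome M left out. Of the 10, 8 were named because they rose in the 3 lines, so the comparison with JEKO-1 is not independent of that choice. In fits chosen after seeing the data, with chromosome M left out, 1 of the 10 passed with the pairs as a random block (NUCB2, limma adjusted p = 0.0161) and 0 with the pairs averaged (limma adjusted p of 0.101 to 0.655). The log2 difference, JEKO-1 minus the 3 lines, with chromosome M left out and the pairs as separate libraries, was -2.49 for BHLHA15, -2.80 for HID1, -2.14 for ABCB4, -2.68 for FKBP11, -1.52 for CDC6, -2.82 for FLRT1, -1.99 for PRDX4, -2.31 for NUCB2, -1.33 for SLC12A7 and -1.07 for QPRT. The first 8 rose in the 3 lines as deposited. NUCB2, the Golgi and ER calcium-binding protein, stood at 59.2, 55.4 and 68.5 CPM with chromosome M left out in JEKO-1 under IBR and at 23.4 and 29.3 CPM under IBR_CLF, without overlap. For SLC12A7, a potassium and chloride cotransporter, and QPRT, an enzyme of NAD synthesis, the JEKO-1 differences with chromosome M left out were -2.39 and -2.03, beside -1.07 and -0.998 in the 3 lines, where neither passed. The JEKO-1 IBR_CLF libraries are 2 libraries whose names differ by a final letter and whose chromosome M share is 59.9%, and the part of that share in the rescaled differences was not tested.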

How the results depend on the processing

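Against 18 called genes as deposited and 5 with chromosome M left out (both limma), the counts were 2 and 0 with no filter on low values, 9 and 1 with at least 1 CPM in every library, 8 and 1 with a pseudocount of 0.1, and 18 and 3 with a pseudocount of 5. They were 0 and 0 with the name pairs averaged, 1 and 0 with the pairs as a random block, 13 and 2 without the 2 unpaired IBR libraries, and 0 and 0 with the name suffix as a block (2086 and 1694 at an unadjusted p under 0.05). Array weights gave 1384 (1056 higher, 328 lower) and 1153 (572 higher, 581 lower), and size factors gave 19 (18 higher, 1 lower). The MINO lines alone gave 424 and 398, and 58 and 25 with the pairs as a random block and 0 and 0 with the pairs averaged, these last 2 chosen after seeing the data. Z138 alone gave 0 and 0 (25 and 27 unadjusted), and with JEKO-1 added the counts were 0 and 3, all 3 lower. Leaving out single libraries gave 0 to 120 and 0 to 62. The 18 genes kept their sign wherever tested. The test between lines called 3 genes with no filter on low values, and the JEKO-1 difference 1346 genes with chromosome M left out. In fits chosen after seeing the data, the JEKO-1 difference called 1900 with the pairs as a random block and 4 with them averaged, or 66 and 42 with chromosome M left out. The difference of the log2 chromosome M share was -0.714 in the MINO lines alone, -0.199 in Z138 alone, -0.437 with the MINO pairs averaged (chosen after seeing the data, exact permutation p = 0.222) and -0.438 to -0.649 without single libraries. In Z138 alone the sign turned for some genes, among them BACH2 (0.49), HSPA5 (-0.26), SDF2L1 (-0.25), XBP1 (-0.021), SEC13 (-0.19), CXCR4 (0.61), BCL2 (0.72) and JCHAIN (0.73). It also turned for HSPD1 and SERPINH1, whose Z138 values are given above. JCHAIN stood at 233 and 221 CPM in Z138 under IBR and at 1071 and 133 CPM under IBR_CLF, so only the first IBR_CLF library was higher. Genes under 3 reads, at most 0.383 CPM, are below what these depths resolve. The causes were not tested, apart from fewer libraries or genes where an alternative removes them.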
